A study of Mus musculus with 8 samples.

Results

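The endothelium of the liver was followed through 10 genes that mark it, in livers given an adenovirus for the long non-coding RNA LeXis: Stab1, Stab2, Lyve1, Clec4g, Kdr, Tek, Eng, Pecam1, Cdh5 and Vwf. They were taken by name: every non-control probe that the scanner files assign to one of these symbols was used, which gave 14 of the 34428 probes kept and 10 of the 23977 genes tested. Total RNA from whole mouse liver was measured on 8 1-colour Agilent arrays, 4 from livers given AdLeXis and 4 from livers given AdGFP, the control adenovirus carrying green fluorescent protein. Every mouse was a bl6 animal of 12 weeks, was fed chow and received a virus, and RNA was isolated on day 6. The treatment tag of each sample names AdLeXis or AdGFP, whereas the treatment protocol text names a control vector and one against Raly; the tag was followed. The labels do not say that the arrays of a group come from separate mice, so the p-values refer to the spread of these samples alone, part of which may be technical. No untreated liver was analysed here.

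Endothelial cells line every vessel of the liver. Those of the sinusoids are perforated by open pores and clear hyaluronan, modified lipoproteins and other large molecules from the blood through scavenger receptors, while those of the portal and central veins and of the arteries form a closed lining. Shared endothelial genes encode the receptors for vascular growth factors and the proteins of the contacts between the cells, and von Willebrand factor is best known from the larger vessels.

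The probes are 60-base oligonucleotides, and 3 of them are printed because they measured the genes with the lowest difference between the groups (Kdr), the difference nearest to 0 (Tek), and one of the 2 junction genes (Pecam1). In mouse build mm9, as given in the files, they lie at chr5:76330395-76330454 on the minus strand (Kdr), chr4:94540624-94540683 on the plus strand (Tek) and chr11:106540864-106540923 on the minus strand (Pecam1). No annotation of that build was used here, so exons and untranslated regions were not assigned.
Kdr: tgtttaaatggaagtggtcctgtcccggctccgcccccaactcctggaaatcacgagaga
Tek: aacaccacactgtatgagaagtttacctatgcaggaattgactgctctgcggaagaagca
Pecam1: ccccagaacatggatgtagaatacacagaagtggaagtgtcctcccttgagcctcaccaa

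Before scaling, the 75th percentile of spot intensity was 381 to 448 on the AdLeXis arrays and 220 to 297 on the AdGFP arrays, and the share of spots well above background was 62.6% to 67.7% in AdLeXis and 58.9% to 62.5% in AdGFP. The 8 arrays were on 1 slide with 1 scan time, but each group filled its own slide row, so row and group cannot be told apart. As a check of the labels, 3 lincRNA probes beside Abca1 on chromosome 4, where LeXis is transcribed, read 9.05 to 10.70 on the AdLeXis arrays and 0.46 to 4.12 on the AdGFP arrays (scaled log2 signal). All 14 endothelial probes were well above background on all 8 arrays and none was saturated, which shows that the genes were detected in whole liver and not which cells the RNA came from. Values below are log2 signals scaled to each array's 75th percentile. They are given for 1 probe at a time, since signals of different probes cannot be ranked against each other.

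None of the 10 genes passed the test in either direction. By limma's moderated test with Benjamini-Hochberg adjustment over all genes and a threshold of 0.05, 0 of 10 were called, where 17.5% of all genes tested were called (8.74% higher and 8.79% lower in AdLeXis). At an unadjusted p under 0.05 the count was also 0 of 10, against 32.1% of all genes. The AdLeXis and AdGFP arrays overlapped for all 10 genes, whereas the groups did not overlap for 24.7% of all genes. The 10 log2 differences, AdLeXis minus AdGFP, ran from -0.21 for Kdr to 0.25 for Lyve1, with a median of 0.06, and the median over all genes was -0.0019. The median size of the difference, sign set aside, was 0.13 for the 10 genes and 0.21 for all genes. Standard errors of the 10 differences ran from 0.094 to 0.17, and the median over all genes was 0.13. Taking the 95% intervals of all 10 genes together, they ran from 0.700-fold (Kdr) to 1.56-fold (Lyve1). In whole liver, fewer cells of a type and less RNA per cell cannot be told apart.

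**Figure D1:**
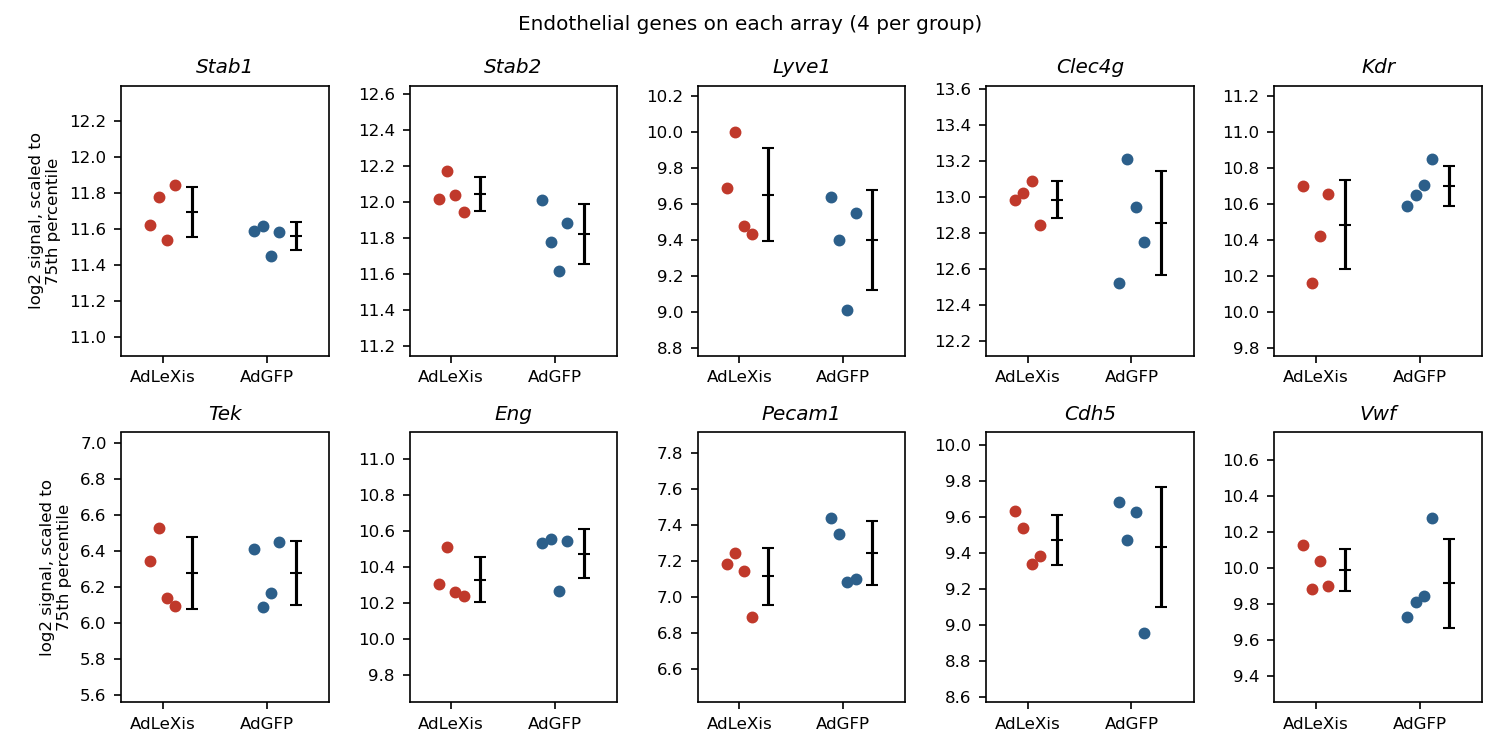
Scaled log2 signal of the 10 endothelial genes on each array (y axis, a separate window of equal height in log2 units for each gene), with AdLeXis arrays left and AdGFP arrays right, points for arrays and bars for the mean ± SD (n = 4 per group). The groups overlap in all 10 panels.

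Markers of other liver cells were read on the same arrays, where 17.5% of all genes were called in either direction and 8.79% were called lower. T and NK cell markers were lower in AdLeXis for 14 of 15 tested, with a median log2 difference of -1.04 and a mean level of 8.33 to 8.55 on AdLeXis arrays and 9.26 to 9.37 on AdGFP arrays. Of these 15, 1 had a difference above 0, at 0.73, and it was not called. Macrophage markers were lower for 9 of 18 (median -0.49, mean level 10.59 to 10.83 on AdLeXis arrays and 10.95 to 11.35 on AdGFP arrays). Of these 18, 4 had differences above 0, up to 0.50, and 0 were called higher. Stellate cell markers were lower for 4 of 15 (median -0.38, mean level 9.41 to 9.74 on AdLeXis arrays and 9.69 to 10.02 on AdGFP arrays), with 2 lower without AdLeXis replicate 2, 3 or 4, without AdGFP replicate 1 or 4 or with no filter on dim probes, and 7 with a trended and robust eBayes. Hepatocyte markers were lower for 12 of 16 (median -0.46, mean level 16.71 to 16.88 on AdLeXis arrays and 17.15 to 17.27 on AdGFP arrays), but only 1 was lower under quantile scaling, with or without normexp background correction. Of 7 bile duct markers tested, 1 was higher and 1 lower (median -0.06, mean level 6.94 to 7.47 on AdLeXis arrays and 6.98 to 7.16 on AdGFP arrays), with 0 lower without AdLeXis replicate 1, 2 or 3 or AdGFP replicate 2, 3 or 4. Cd163 and Trac of these lists did not pass the filter on dim probes. Macrophages also express Stab1 and Lyve1 in some tissues, and the part of these other cells in the endothelial values was not tested. The mean level of the 10 endothelial genes was 9.92 to 10.09 on AdLeXis arrays and 9.87 to 10.02 on AdGFP arrays, so the groups overlapped.

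The sinusoidal receptors Stab1, Stab2, Lyve1 and Clec4g were the genes with the highest differences, and none of the 4 passed the test. Stab1 and Stab2 encode the stabilins, large receptors that clear hyaluronan and modified lipoproteins from the sinusoidal blood. Stab2 read 12.02, 12.17, 12.04 and 11.95 on the AdLeXis arrays, against 12.01, 11.78, 11.62 and 11.89 on the AdGFP arrays. Of the AdGFP arrays, replicate 1 reached into the AdLeXis range and replicate 3 was the lowest. Its log2 difference was 0.22 (SE 0.10, 95% interval -0.02 to 0.46, adjusted p = 0.186 by limma), and its unadjusted p of 0.0661 was the smallest of the 10 genes. The files hold 3 probes of Stab2, spread over 151335 bases of chromosome 10. The other Stab2 probes had log2 differences of 0.11 each (A_55_P2026487 and A_55_P2026492, adjusted p = 0.565 and 0.641 over all probes by limma). With normexp background correction and quantile scaling the difference of Stab2 was 0.45 and passed the test (adjusted p = 0.0220). That was the one call of any of the 10 genes among the 19 alternatives.

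Stab1 read 11.62, 11.78, 11.54 and 11.84 on the AdLeXis arrays, against 11.59, 11.62, 11.45 and 11.58 on the AdGFP arrays. AdLeXis replicates 2 and 4 lay well above the AdGFP range and replicate 1 at its upper end, while replicate 3 lay below 3 of the AdGFP arrays. Its log2 difference was 0.14 (SE 0.094, adjusted p = 0.366 by limma). Lyve1, a hyaluronan receptor of sinusoidal and lymphatic endothelium, read 9.69, 10.00, 9.48 and 9.43 on the AdLeXis arrays, against 9.64, 9.40, 9.01 and 9.55 on the AdGFP arrays. AdLeXis replicate 2 was the highest and AdGFP replicate 3 the lowest array, and the others were mixed. Its log2 difference of 0.25 was the largest of the 10, but so was its standard error of 0.17 (95% interval -0.14 to 0.65, adjusted p = 0.362 by limma).

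Clec4g, the C-type lectin LSECtin of sinusoidal endothelium, read 12.98, 13.02, 13.09 and 12.85 on the AdLeXis arrays, against 12.53, 13.21, 12.94 and 12.75 on the AdGFP arrays. The 4 AdLeXis arrays lay inside the range of the AdGFP arrays, which held both the lowest and the highest value. AdLeXis minus AdGFP was 0.13 on the log2 scale (SE 0.15, 95% interval -0.20 to 0.46, adjusted p = 0.595 by limma). All 4 of these sinusoidal receptors had differences above 0, from 0.13 to 0.25, and stayed above 0 under all 19 alternatives, the 4 other scalings included, with the lowest at 0.0018 for Stab1.

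The signalling receptors had differences at or below 0, and none of the 3 passed. Kdr encodes VEGFR2, the main receptor through which vascular endothelial growth factor acts on endothelial cells. Its brightest probe read 10.70, 10.16, 10.42 and 10.66 on the AdLeXis arrays, against 10.59, 10.65, 10.71 and 10.85 on the AdGFP arrays. AdLeXis replicates 2 and 3 lay below all AdGFP arrays, while replicates 1 and 4 lay among them. The log2 difference was -0.21 (SE 0.13, 95% interval -0.51 to 0.09, adjusted p = 0.307 by limma).

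A further Kdr probe, A_51_P316553, which lies within a stretch of 1146 bases with the other one, is spotted 10 times on each array. The mean of its spots was 9.74, 9.72, 9.76 and 9.80 on the AdLeXis arrays, against 10.06, 9.95, 9.82 and 9.99 on the AdGFP arrays. All AdLeXis arrays lay below all AdGFP arrays, with a gap between AdLeXis replicate 4 and AdGFP replicate 3 that is smaller than the spread of spots on either array. It was the one of the 14 endothelial probes whose groups did not overlap, where 22.9% of all probes had groups that did not overlap (11.1% with AdLeXis lower). Its log2 difference was -0.20 (SE 0.081, 95% interval -0.38 to -0.01), with an unadjusted p of 0.0384 and an adjusted p of 0.140 over all probes by limma. It did not pass, and neither did any of the 14 probes, where 14.9% of all probes did. The SD between spots on 1 array was 0.043 to 0.11, and 4 outlier spots were left out over the 8 arrays. Between arrays the SD of this probe was 0.033 in AdLeXis and 0.097 in AdGFP, against 0.25 in AdLeXis and 0.11 in AdGFP for the single-spot Kdr probe.

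**Figure D2:**
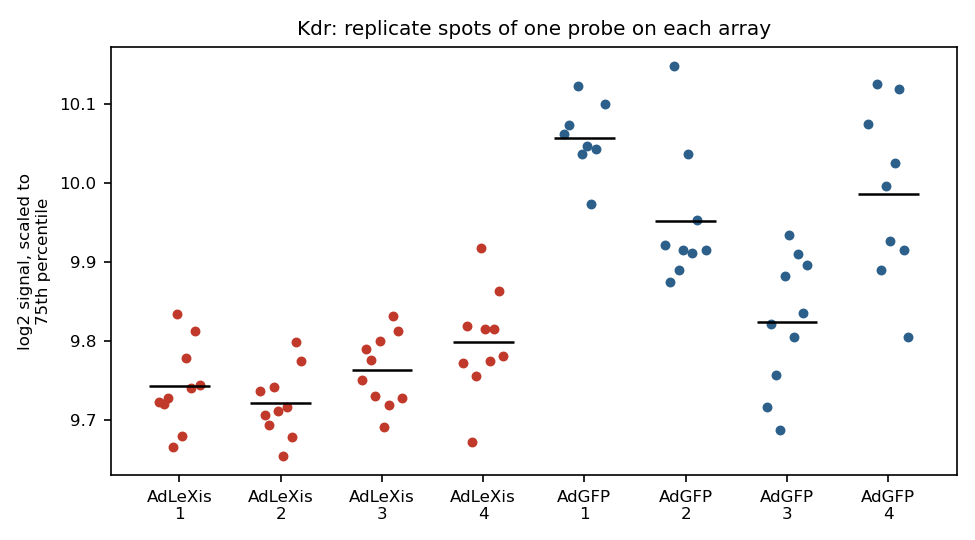
Scaled log2 signal of each replicate spot of the Kdr probe A_51_P316553 on the 4 AdLeXis arrays (left) and the 4 AdGFP arrays (right), with outlier spots left out and lines at each array's mean. Array means are 9.72 to 9.80 in AdLeXis and 9.82 to 10.06 in AdGFP, and single spots of AdGFP replicates 2, 3 and 4 fall among those of the AdLeXis arrays.

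Eng encodes endoglin, a co-receptor that helps BMP9 and BMP10 signal through the receptor ALK1. It read 10.31, 10.52, 10.26 and 10.24 on the AdLeXis arrays, against 10.54, 10.56, 10.27 and 10.55 on the AdGFP arrays. All AdLeXis arrays lay below 3 of the AdGFP arrays, and AdGFP replicate 3 lay apart from the rest of its group, among the AdLeXis arrays. The log2 difference was -0.15 (SE 0.10, 95% interval -0.38 to 0.09, adjusted p = 0.372 by limma); it was -0.21 without AdGFP replicate 3, and did not pass there either (adjusted p = 0.191). With normexp background correction and quantile scaling it was -0.34 (adjusted p = 0.0507).

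Tek encodes Tie2, the receptor of the angiopoietins. Its probe read 6.34, 6.53, 6.14 and 6.10 on the AdLeXis arrays, against 6.41, 6.09, 6.17 and 6.45 on the AdGFP arrays. Each group had a pair of higher and a pair of lower arrays. The groups differed by -0.00048 on the log2 scale (SE 0.13, 95% interval -0.30 to 0.30, adjusted p = 0.999 by limma). Kdr and Eng stayed below 0 under all 19 alternatives, the 4 other scalings included, and Tek changed sign in 6 of them.

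Neither gene of the endothelial contacts passed. Pecam1 encodes CD31, an adhesion molecule at the borders between endothelial cells that leukocytes and platelets also carry. Its probe, spotted 2 times per array, read 7.18, 7.25, 7.14 and 6.89 on the AdLeXis arrays, against 7.44, 7.35, 7.09 and 7.10 on the AdGFP arrays. AdGFP replicates 1 and 2 lay above all AdLeXis arrays, and AdGFP replicates 3 and 4 lay inside the AdLeXis range. The SD between the spots on 1 array ran from 0.0054 to 0.38. The log2 difference was -0.13 (SE 0.12, 95% interval -0.40 to 0.14, adjusted p = 0.504 by limma), and it was below 0 under all 19 alternatives.

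Cdh5 encodes VE-cadherin, which holds endothelial cells together at their adherens junctions. It read 9.64, 9.54, 9.34 and 9.38 on the AdLeXis arrays, against 9.69, 9.47, 9.63 and 8.95 on the AdGFP arrays. AdGFP replicate 4 was the lowest array of the 8, and the other arrays of the groups overlapped. Cdh5 had a log2 difference of 0.04 (SE 0.17, 95% interval -0.34 to 0.42, adjusted p = 0.905 by limma); it was -0.12 without AdGFP replicate 4 and changed sign in 4 of the 19 alternatives.

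Vwf encodes von Willebrand factor, the secreted glycoprotein that tethers platelets to a damaged vessel wall and carries factor VIII. Its brightest probe read 10.13, 9.88, 10.04 and 9.90 on the AdLeXis arrays, against 9.73, 9.81, 9.85 and 10.28 on the AdGFP arrays. The AdLeXis arrays lay above 3 of the AdGFP arrays, and AdGFP replicate 4 was the highest of all. For Vwf the log2 difference was 0.07 (SE 0.13, 95% interval -0.23 to 0.37, adjusted p = 0.756 by limma); it was 0.19 without AdGFP replicate 4 and changed sign in 2 of the 19 alternatives. The other Vwf probe, A_55_P2169659, lies in the same 94505 bases of chromosome 6 and had a log2 difference of -0.06 (adjusted p = 0.795 over all probes by limma).

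**Figure D3:**
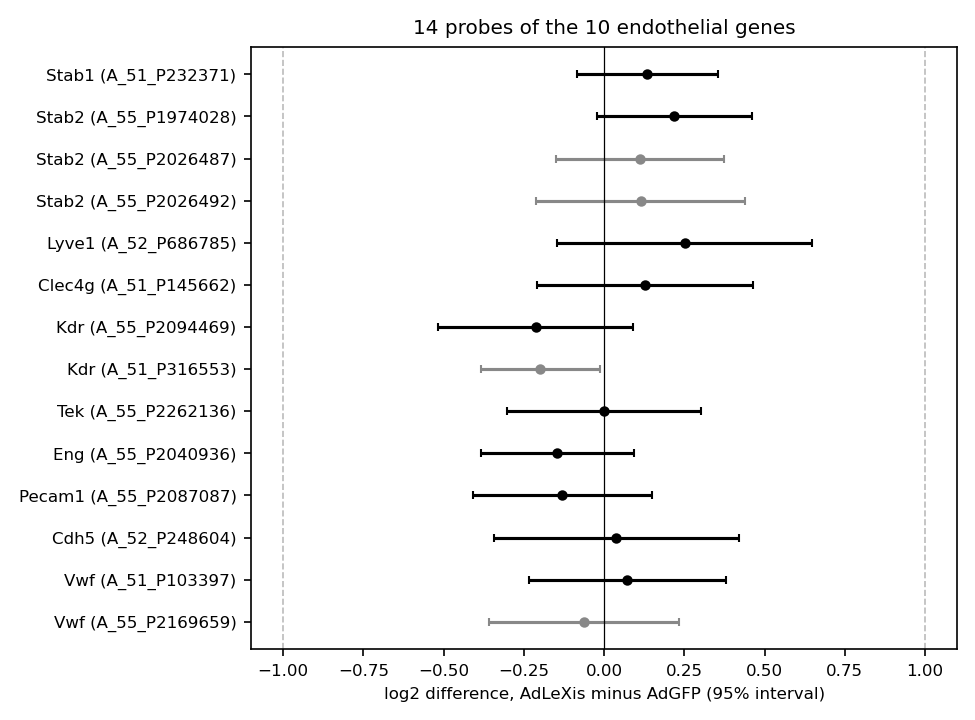
Log2 difference, AdLeXis minus AdGFP, with its 95% interval from limma for each of the 14 probes (x axis; n = 4 arrays per group). Black marks the probe used for the gene, grey the other probes, and dashed lines mark a 2-fold change. No interval reaches a dashed line, and the one interval that leaves out 0 is that of the 10-spot Kdr probe A_51_P316553 (-0.38 to -0.01).

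Some arrays held the highest or lowest value of their group for several genes. AdLeXis replicate 4 was the lowest array of its group for 6 of the 10 genes. AdLeXis replicate 2 was the highest for 5 and the lowest for 2. AdGFP replicate 3 was the lowest of its group for 5 of the 10 genes and the highest for 0. AdGFP replicate 1 was the highest for 4 and the lowest for 3. Whether these counts exceed chance was not tested. The median over the 10 genes of an array's deviation from its group mean was 0.05, 0.11, -0.07 and -0.09 for AdLeXis replicates 1 to 4 and 0.10, 0.02, -0.11 and 0.06 for AdGFP replicates 1 to 4. In both groups these deviations spread wider than the median difference of 0.06 between the groups.

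**Figure D4:**
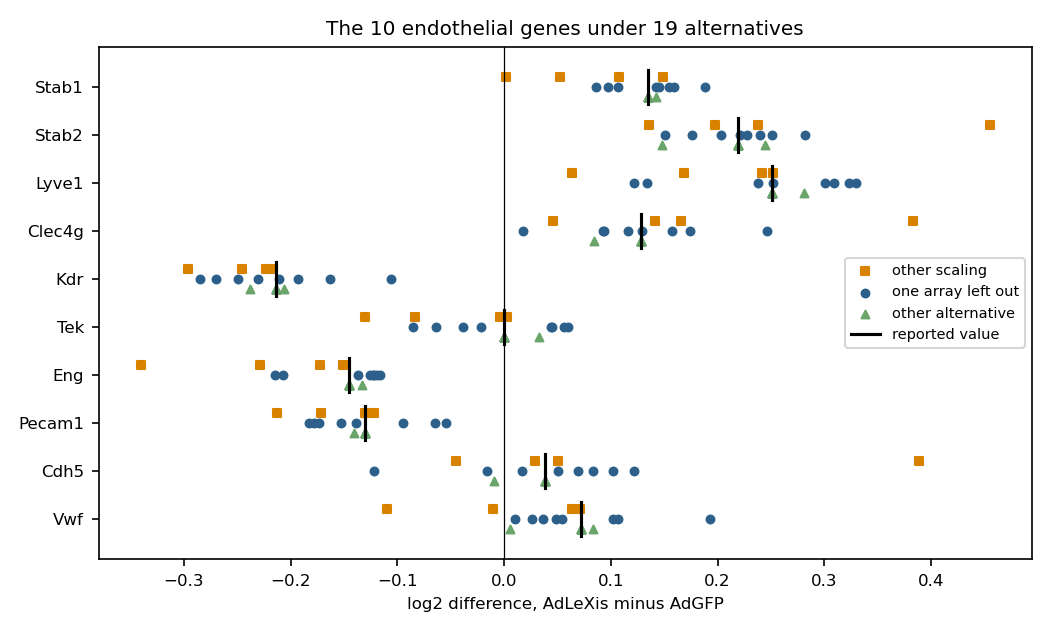
Log2 difference, AdLeXis minus AdGFP, of the 10 genes as reported (black line) and under each of 19 alternatives: 4 other scalings (squares), 1 array left out (circles) and other settings (triangles). Stab1, Stab2, Lyve1 and Clec4g lie above 0 and Kdr, Eng and Pecam1 below 0 under all 19, some of which cannot move a difference. Tek, Cdh5 and Vwf change sign in 6, 4 and 2 alternatives.

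Wider lists of endothelial genes, written from textbook knowledge with earlier results of these data known, were read beside the 10 genes. Of 139 such genes in 7 lists, 131 were tested, and 9 were higher and 8 lower in AdLeXis. That is 13.0% called, against 17.5% of all genes, and the median log2 difference was -0.08. The lower count was 5 without AdLeXis replicate 2, 4 without AdLeXis replicate 4 and 3 without AdGFP replicate 1. It was also 5 with no filter on dim probes, 14 with a trended and robust eBayes and 18 with normexp background correction and quantile scaling.

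Among 17 further sinusoidal genes, 1 was higher and 1 lower, and the median log2 difference was 0.02. That is 11.8% called, against 17.5% of all genes. At an unadjusted p under 0.05 by limma there were 4 of 17, against 32.1% of all genes. Cd36, a receptor for fatty acids and oxidised lipoproteins that hepatocytes also make, averaged 10.76 ± 0.50 in AdLeXis and 9.22 ± 0.15 in AdGFP (SD, n = 4 each). Its log2 difference was 1.54 (SE 0.23, adjusted p = 0.00422 by limma), with no overlap between the groups. Dnase1l3, a secreted DNase, averaged 9.22 ± 0.047 in AdLeXis and 9.78 ± 0.24 in AdGFP (SD, n = 4 each), a log2 difference of -0.57 (adjusted p = 0.0170 by limma). Both kept their calls under all 19 alternatives.

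In the endoglin and ALK1 pathway, 1 of 19 tested genes was higher and 2 were lower, or 15.8% called against 17.5% of all genes, and the median log2 difference was -0.25. At an unadjusted p under 0.05 by limma there were 9 of 19, against 32.1% of all genes. Acvrl1, which encodes ALK1, the receptor that endoglin assists, averaged 9.65 ± 0.12 in AdLeXis and 10.28 ± 0.24 in AdGFP (SD, n = 4 each), a log2 difference of -0.63 (adjusted p = 0.0145 by limma). Tgfbr2, a type II receptor for TGF-beta, had a log2 difference of -0.34 (adjusted p = 0.0372; -0.15 for its other probe), and Hey1, a Notch target, one of 0.43 (adjusted p = 0.0396). Both calls depended on single arrays, though neither was lost for every array left out. That of Tgfbr2 was lost without AdLeXis replicate 1, 3 or 4 or AdGFP replicate 1, 2 or 4. That of Hey1 was lost without AdLeXis replicate 1, 2 or 4 or AdGFP replicate 2, 3 or 4. The lower count of this list was 1 without AdLeXis replicate 1 or 4 or AdGFP replicate 1, 2 or 4 and with no filter on dim probes. It was 4 with quantile scaling, with probes required to be well above background on all 8 arrays, or with a trended and robust eBayes, and 5 with normexp background correction and quantile scaling.

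In the list of VEGF, angiopoietin and Tie genes, 1 of 16 was higher and 0 were lower (2 were higher without AdLeXis replicate 1). That is 6.25% called, against 17.5% of all genes. At an unadjusted p under 0.05 by limma there were 3 of 16, against 32.1% of all genes. The gene called was Esm1, an endothelial proteoglycan that binds growth factors, with 8.27 ± 0.29 in AdLeXis and 7.11 ± 0.28 in AdGFP (SD, n = 4 each), a log2 difference of 1.16 (adjusted p = 0.00500). The angiocrine factors, signals from endothelium to other liver cells, gave 0 of 15 calls by limma, with 2 at an unadjusted p under 0.05. Both shares were below those of all genes (17.5% called and 32.1% at an unadjusted p under 0.05). The smallest p of the angiocrine list belonged to Dkk3 (-0.50, adjusted p = 0.0630) and Pdgfb (-0.36, adjusted p = 0.122). The 2 Pdgfb probes differed in direction, with log2 differences of -0.36 and 0.05. Without AdGFP replicate 2 or 4, 1 gene was called lower. Likewise 1 was lower with median scaling, with probes required on all 8 arrays or with a trended and robust eBayes, and normexp background correction with quantile scaling gave 2 lower and 1 higher. The test of a difference between these lists was not run.

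Of 19 further junction and adhesion genes, 0 were called by limma and 5 had an unadjusted p under 0.05, with a median log2 difference of -0.15. Of all genes, 17.5% were called and 32.1% had an unadjusted p under 0.05. Mcam (-0.73, adjusted p = 0.0706) and F11r (-0.27, adjusted p = 0.0768), both adhesion molecules of endothelial borders, had the smallest p of the list. The other Mcam probe had a log2 difference of -0.17. Without AdLeXis replicate 1 or AdGFP replicate 3, 1 gene was called lower. With normexp background correction and quantile scaling 5 were lower, with a trended and robust eBayes 3, and with median scaling or array weights 1.

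The list for other vessel types mixed genes of arteries, veins and lymphatics with genes not particular to any of these. It gave 2 higher and 2 lower of 21, with a median of -0.03. That is 19% called, against 17.5% of all genes. At an unadjusted p under 0.05 by limma there were 6 of 21, against 32.1% of all genes. Ephb4, an ephrin receptor of venous endothelium, averaged 10.26 ± 0.091 in AdLeXis and 9.17 ± 0.40 in AdGFP (SD, n = 4 each), a log2 difference of 1.09 (adjusted p = 0.00652 by limma). Procr, the endothelial receptor of protein C, averaged 7.57 ± 0.023 in AdLeXis and 8.22 ± 0.14 in AdGFP (SD, n = 4 each), a log2 difference of -0.65 (adjusted p = 0.00289). Cav2, a caveolin, was higher (0.65, adjusted p = 0.0118), but its 2 probes differed, and their mean gave 0.50 (adjusted p = 0.346). Gja4, a connexin of arterial endothelium, was lower (-0.46, adjusted p = 0.0262), a call that was lost without AdLeXis replicate 2 or 3 or AdGFP replicate 1, 2 or 4. The lower count was 1 without AdLeXis replicate 3 or AdGFP replicate 1 or 2.

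Endothelial transcription factors gave 4 higher and 3 lower of 25, or 28% called against 17.5% of all genes, with a median of -0.12. At an unadjusted p under 0.05 by limma there were 11 of 25, against 32.1% of all genes. The lower count was 0 without AdLeXis replicate 2, AdLeXis replicate 4 or AdGFP replicate 1, and 1 without AdGFP replicate 3. The 4 of smallest p were all higher: Gata6 (0.81, adjusted p = 0.00396), Sox18 (0.72, adjusted p = 0.0105), Meis1 (0.63, adjusted p = 0.0117) and Epas1 (0.56, adjusted p = 0.0187, all by limma). Epas1, which encodes the oxygen-regulated factor HIF-2alpha, had 3 probes with log2 differences from -0.33 to 0.56, of which 1 was called lower and 1 higher, so its direction depends on the probe. Its call was also lost without AdLeXis replicate 2 or AdGFP replicate 1 or 2.

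Beside Vwf, 9 platelet genes were tested, since platelets carry the protein and meet it on the vessel wall, and 1 was higher and 1 lower. That is 22.2% called, against 17.5% of all genes. At an unadjusted p under 0.05 by limma there were 4 of 9, against 32.1% of all genes. Pf4, a chemokine of platelet granules, was higher (0.58, adjusted p = 0.00756 by limma). Gp9, a subunit of the platelet receptor for von Willebrand factor, was lower (-0.39, adjusted p = 0.0232), a call that was lost without AdLeXis replicate 2 or 3 or AdGFP replicate 2 or 4. Without AdLeXis replicate 4 the lower count was 2, and without AdGFP replicate 4 the higher count was 2.

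**Figure D5:**
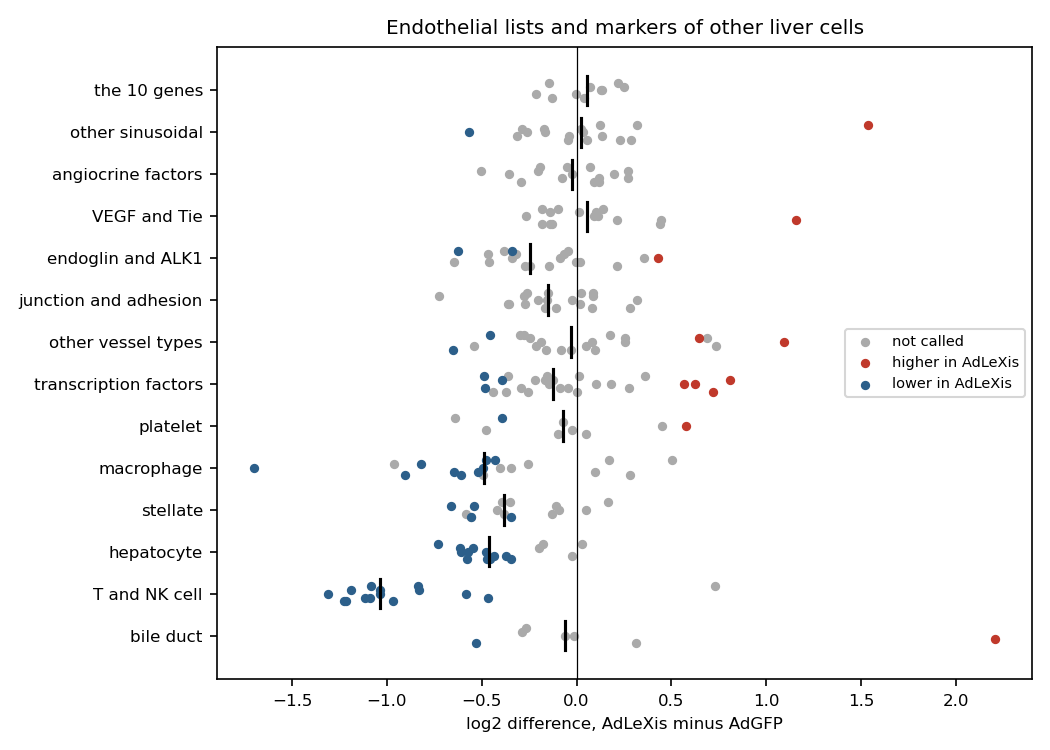
Log2 difference, AdLeXis minus AdGFP, of every tested gene of the 10 endothelial genes, the 7 wider endothelial lists, the platelet list and the markers of other liver cells (x axis), with the list median as a vertical bar. Red and blue mark genes called higher and lower in AdLeXis. The 10 genes lie between -0.21 and 0.25 with no call, and the T and NK cell markers have a median of -1.04; the hepatocyte calls fall to 1 under quantile scaling.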

How the data were processed

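Per the file headers, the authors read the arrays with Agilent Feature Extraction 11.5.1.1. The deposited processed intensity is linear, had its background subtracted and was detrended array by array, with no scaling across arrays. A value table deposited for the whole series repeats this linear intensity (largest relative difference 0). The labels' protocols name no test.

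The log2 of the deposited processed intensity was scaled to each array's 75th percentile, adding back the mean over arrays. Control and outlier spots were left out, and spots of a probe were averaged. Probes were kept if well above background on 4 or more arrays and measured on 2 or more in each group, and a gene was read from its kept probe of highest mean. Names were updated through RefSeq accessions where possible (27656 of 55681 probes by accession, 3401 by symbol). Groups were compared over all genes with limma 3.58.1 (lmFit, eBayes) in R 4.3.3, two-sided, with Benjamini-Hochberg adjustment. The script was tested on simulated data. It recovered 17 of 100 genes changed 1.5-fold, 32 of 50 changed 2-fold and 42 of 50 changed 4-fold, and called 0 unchanged genes. Many changes below 2-fold would thus be missed. The number of arrays limits the precision.

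The 10 genes and all lists were chosen with earlier results of these data known. Named were the 10 genes; in other endothelial and platelet lists every called gene where there were 6 or fewer and otherwise the 4 of smallest p; in lists with no call the 2 of smallest p. The markers of other cells are given as counts. The alternatives were other scalings, background correction, probe filters, probe averaging, fit settings, a replicate block, the deposited table, and leaving out each array. The probe filters, the trended and robust eBayes, the replicate block and the deposited table leave the log2 differences of the 10 genes unchanged.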

Additional observations from a re-analysis of the deposited data

Results flagged for a closer look

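In 104 groups of 4 arrays (the 10 genes, their other probes and the named genes), 3 held an array whose gap to its nearest neighbour, as a share of the group's range, exceeded Dixon's 95% critical value; chance gives about 1 in 20. For Eng in AdGFP the share was 0.931: AdGFP replicate 3 read 10.27 and the others 10.54 to 10.56. For Gja4 in AdGFP it was 0.905, with AdGFP replicate 3 at 10.85 and the others at 10.97 to 10.98. For Cd36 in AdGFP it was 0.864, with AdGFP replicate 2 at 9.45 and the others at 9.12 to 9.17.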

How the results depend on the processing

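Of the 10 genes, the count called higher was 1 with normexp background correction and quantile scaling (Stab2) and 0 under the other alternatives, and the count called lower was 0 under all 19. The median log2 difference of the 10 genes was -0.03 with median scaling, -0.05 with normexp background correction and quantile scaling, and 0.0053 to 0.08 leaving out single arrays. With the replicate block it was 0.06, with 0 of the 10 called and 3150 of all genes called, and Tgfbr2, Hey1 and Gp9 missed the threshold (adjusted p = 0.0728, 0.0628 and 0.0533), while no other call named in the text was lost. The labels share replicate numbers, but the deviations of same-numbered arrays correlated at 0.0017 to 0.12, with 1 of 4 pairs over 0.1, so the numbers were not taken as pairs. Leaving out single arrays, all genes called ranged from 2528 (without AdLeXis replicate 4) to 4122 (without AdLeXis replicate 1), with 2800 without AdGFP replicate 1, against 4202. Median scaling gave 1157 higher and 2683 lower, against 2095 higher and 2107 lower. Tek changed sign with cyclic loess scaling (0.0030), array weights (0.0328) and single arrays left out (-0.0849 to 0.0603). Cdh5 did so with median scaling (-0.0446), array weights (-0.0092) and single arrays left out (-0.12 to 0.12), and Vwf with median scaling (-0.0106) and normexp (-0.11). Stab2 probe A_55_P2026487 gave -0.0731 with normexp, and Vwf probe A_55_P2169659 ran from -0.14 to 0.0265 leaving out single arrays. Alb, a hepatocyte marker, turned to 0.27 with normexp. The causes were not tested. With 4 arrays per group each gene has its own precision: the 95% interval ran from 0.947-fold to 1.27-fold for Stab1 and from 0.905-fold to 1.56-fold for Lyve1.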
